A study of Mus musculus with 9 samples.

Results

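The eukaryotic translation initiation factors (eIFs) are the proteins that bring the initiator methionyl-tRNA, the mRNA and the ribosomal subunits together at a start codon. They were taken here as all genes of the table whose symbol begins with Eif and a digit from 1 to 6, with pseudogenes named -ps left out, which gave 58 of 55487 genes. The rule used names and no measured value. RNA-seq had been performed on CD4+ T cells purified by negative selection from the spleens of wild type (Trail-r+/+) C57BL/6 mice, described in the methods as female and 6 to 7 weeks old. Of 3 groups of 3 libraries, the medium group received nothing else. The stimulated group received Abs against CD3, at 3 µg/ml, and against CD28, at 2 µg/ml, which trigger the TCR together with its main costimulatory receptor, for 24 h. The third group received the same Abs with TRAIL (10 µg/ml), a TNF-related death ligand, over the same 24 h. The culture time of the medium group is not given in the sources used here, nor is it given how many mice made up a library or whether the libraries of a group came from separate mice. The p-values therefore measure the spread between these libraries, which may be technical. The comparisons asked how stimulation through the TCR changed the transcripts of the initiation machinery, how TRAIL changed them in stimulated cells, and where TRAIL-treated activated T cells stood relative to cells in medium.

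Initiation begins with eIF2, a GTPase of an α, a β and a γ subunit that carries the initiator tRNA to the small ribosomal subunit. Each round leaves eIF2 bound to GDP, and the exchange factor eIF2B returns it to the GTP form. Kinases that sense stress phosphorylate the α subunit of eIF2, which then holds eIF2B inactive and slows initiation on most mRNAs. The mRNA arrives through eIF4F, made of the cap-binding protein eIF4E, the scaffold eIF4G and the helicase eIF4A, and it docks on the small subunit through eIF3, the largest of the factors. eIF4E-binding proteins (4E-BPs) compete with eIF4G for eIF4E until the kinase mTOR phosphorylates them. T cells that leave quiescence are known to enlarge this machinery and to make much more protein.

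The values are TPM, a measure of transcript abundance per length in which every library totals 1000000, so levels of different genes can be compared within a library. TPM gives shares only. Read depth is therefore unknown, and a gene's share can move when other transcripts rise or fall. Groups were compared with limma on log2(TPM + 1), with Benjamini-Hochberg adjustment over the 15536 genes that reached 1 TPM in at least 3 libraries, and fold changes on this scale understate those of genes of a few TPM. A gene is said to have risen or fallen where the adjusted p was under 0.05, and to have changed at least 2-fold where its log2 fold change also reached 1 in size. Of the 58 members, 53 were tested and 5 stood too low. Libraries of a group resembled each other, with correlations of log2(TPM + 1) across genes, which are not independent replicates, from 0.983 to 0.993. Stimulated replicate 1 lay apart from the other two stimulated libraries for several members named in later paragraphs.

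All 8 T cell markers examined were present in every library, between 116 and 998 TPM. Some of them also differed between the groups. On stimulation Cd3g, Cd4 and Lck fell by 1.04, by 0.81 and by 0.46 on the log2 scale and Cd2 rose by 1.09. With TRAIL against stimulated cells Cd3d, Cd3g, Cd4, Lck and Trac rose, by 0.26 to 0.99, and Cd2 fell by 0.91. Against medium, Cd3e alone passed, as lower by 0.42. Markers of other cells moved with the groups too. The summed TPM of 10 B cell markers lay from 6568 to 7205 in medium libraries, from 749 to 811 after stimulation and from 3218 to 3712 with TRAIL. Over 11 myeloid markers, it was 1925 to 2186, 63.4 to 77.8 and 1400 to 1622, and over 7 erythroid markers 2137 to 2585, 24.8 to 39.6 and 619 to 669. For 4 NK cell markers it was 229 to 293, 30.2 to 40.1 and 128 to 156. Every gene of these 4 lists fell from medium to stimulated libraries and rose from stimulated to TRAIL-treated ones. The other lists differed. The CD8 T cell markers Cd8a and Cd8b1 together had 110.0 to 118 TPM in medium, 94.2 to 105 after stimulation and 46.9 to 49.4 with TRAIL, and both were lower with TRAIL than in either other group. The 4 dendritic cell markers summed to between 21.7 and 22.5 TPM in medium, 7.41 and 9.83 after stimulation and 14.1 and 16.5 with TRAIL, but 1 of them, Zbtb46, rose by 0.99 on the log2 scale on stimulation and fell by 1.63 with TRAIL. None of the B cell, myeloid or NK cell markers was at the lowest listed value of 0.0001 TPM in any library, whereas 3 of the erythroid genes and 1 of the dendritic cell genes were in some. Their part in the results that follow was not tested. In bulk RNA, fewer cells of a type and less RNA per cell cannot be told apart. TPM was also rescaled without these genes, the dendritic cell markers and all immunoglobulin genes, an alternative chosen after seeing the data. The counts of members changed at least 2-fold were then 21, 20 and 0 in the 3 comparisons, against 21, 22 and 0 as deposited. Eif3l and Eif4a1 were no longer counted in the second comparison. The rescaling multiplied all remaining genes of a library by a common factor. Any member transcripts from other cells stayed in the values, so these counts cannot show what part those cells had.

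Promoter sequence is shown for 4 members, as an example of a motif that the rule did not use. Windows of 300 bases, from 250 before to 50 after a transcript start, were found in RefSeq (GRCm38.p6) for 45 of the 58 members, which had 58 windows. The letters CACGTG, the canonical E-box recognised by Myc, USF and related factors and identical on both strands, stood in 12 of these 58 windows (20.7%) and in 7.15% of all 32851 windows. Counted by gene, 10 of 45 members (22.2%) held it, against 8.09% of all genes with a window and 11.8% of the tested ones. In the following 66-base stretches, 5′ to 3′ on the strand of the gene, the capitals mark the motif. Eif5a and Eif4a1 were the most abundant members in stimulated cells, Eif4g1 encodes the main eIF4G scaffold, and Eif5a2 is the scarce paralog of Eif5a.
Eif5a (chr11:69921425-69921490, minus strand): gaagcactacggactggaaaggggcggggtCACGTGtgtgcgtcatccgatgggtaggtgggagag
Eif4a1 (chr11:69672577-69672642, minus strand): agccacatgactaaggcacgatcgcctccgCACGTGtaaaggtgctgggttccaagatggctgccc
Eif4g1 (chr16:20672643-20672708, plus strand): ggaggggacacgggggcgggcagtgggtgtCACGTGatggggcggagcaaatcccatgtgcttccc
Eif5a2 (chr3:28781130-28781195, plus strand): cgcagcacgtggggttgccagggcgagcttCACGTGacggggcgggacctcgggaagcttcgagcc
Each stretch lies upstream of a start and overlaps no exon of GENCODE M21. Those of Eif5a and Eif4g1 lie inside the annotated gene, before a start within it, and those of Eif4a1 and Eif5a2 lie outside it. The stretch of Eif5a2 holds the letters a second time, in lower case near its 5′ end. CACGTG stood in 4 of 14 members with a window that rose at least 2-fold on stimulation and in 6 of the other 28 tested members with a window, including Eif5a2, whose level did not pass the test in that comparison. The letters TGATGNAA, part of the element bound by Atf4 and its partners and searched on both strands, were found in 1 of 58 windows (1.72%), that of Eif2s3x, and in 3.97% of all windows. A match is a description of letters and not of binding.

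Most of the family rose in the stimulated libraries, which are bulk RNA. Between stimulated and medium cells, 37 of the 53 tested members rose, 4 fell and 12 did not pass the test, beside 28.8% of all tested genes higher and 40% lower. At least 2-fold, 19 members rose and 2 fell, beside 12.4% and 19.5% of all genes (31.9% in either direction). The median log2 fold change was 0.79 over the members and -0.15 over all genes, with a range among members from -1.60 (Eif4a2) to 4.07 (Eif4ebp1). The libraries did not overlap for 38 members that were higher and 6 that were lower, beside 29.9% and 42.6% of all genes. The members together took 8349 to 9040 TPM of each medium library and 13612 to 13850 TPM of each stimulated one, a 1.58-fold difference of the means. Without Eif5a, the most abundant member after stimulation, the difference was 1.40-fold.

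TRAIL added to the Abs was accompanied by the opposite movement. In TRAIL-treated activated T cells against stimulated cells, 39 members fell, 5 rose and 9 did not pass the test, beside 33.5% of all genes lower and 33.5% higher. At least 2-fold, 20 fell and 2 rose, beside 14.3% and 16.6% of all genes (30.9% in either direction). The median log2 fold change was -0.89 over the members and 0.011 over all genes. The libraries did not overlap for 38 members that were lower and 5 that were higher, beside 34.9% and 35.5% of all genes. The members together took 8219 to 8550 TPM of each TRAIL-treated library, below every stimulated library and within or below the range of the medium ones. The 2 contrasts share the stimulated libraries, so a gene that stands high in those libraries differs from both other groups, and the contrasts are not independent of each other.

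**Figure D1:**
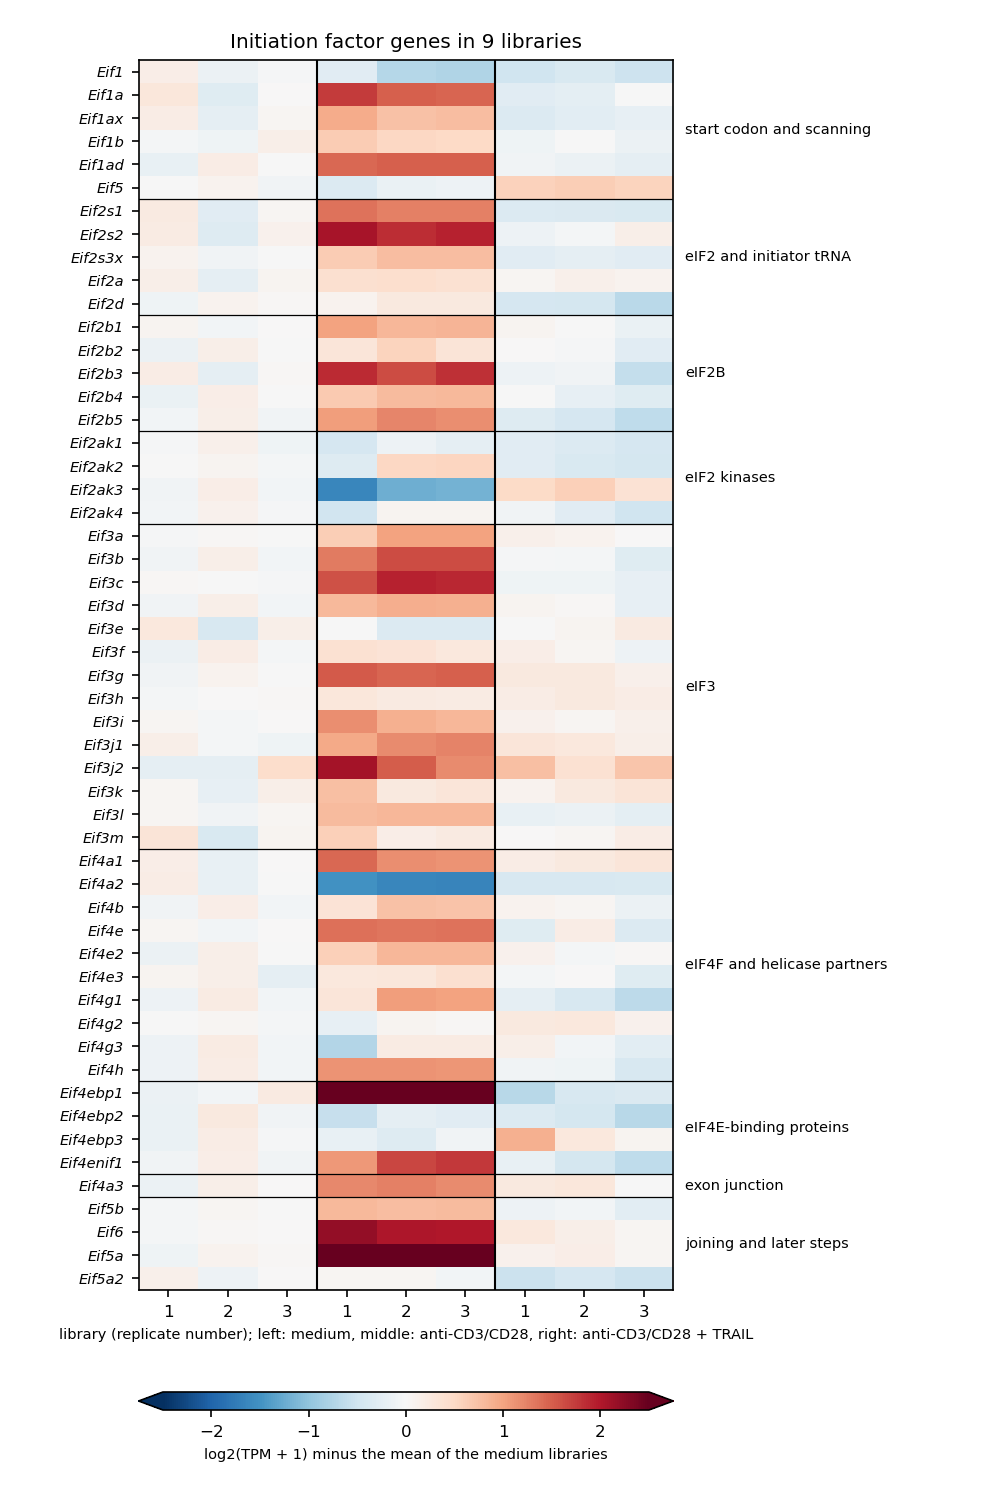
Log2(TPM + 1) of the 53 tested members (rows, grouped by role) in each of the 9 libraries (columns), minus the mean of the medium libraries. Red cells fill most of the middle block, the stimulated libraries, with Eif4a2 and Eif2ak3 in blue there, and the TRAIL-treated block on the right is pale for most members. The colour scale ends at 2.5, and Eif4ebp1 and Eif5a lie beyond it in the stimulated libraries.

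Among the subunits of eIF2, stimulation raised the β subunit most. Eif2s2, which encodes it, stood at 123, 85.7 and 115 TPM in the medium libraries, 448, 389 and 409 in the stimulated ones and 97.99, 103 and 119 with TRAIL. The stimulated libraries were all above the others, and the medium and TRAIL-treated ranges overlapped. The log2 fold change was 1.95 ± 0.14 (SE, n = 3 and 3 libraries) on stimulation, with a limma adjusted p of 7.9e-07, and -1.95 ± 0.14 (adjusted p = 8.2e-07) with TRAIL against stimulated cells. Eif2s1, the α subunit that the stress kinases phosphorylate, went from 66.8, 47.01 and 59.6 TPM to 147, 137 and 138, and stood at 44.9, 44.3 and 43.5 with TRAIL. It rose by 1.29 on the log2 scale and was 0.314 times as abundant with TRAIL as in stimulated cells. Eif2s3x, the X-linked γ subunit, had 173, 153 and 160.1 TPM in medium, 253, 279 and 278 after stimulation and 134, 138 and 134 with TRAIL, a smaller rise of 0.73 on the log2 scale. In every library the γ subunit gene was more abundant than that of the α subunit. The α subunit gene made up 34.9 ± 0.73% (mean ± SD, n = 3) of the summed TPM of Eif2s1 and Eif2s2 in medium, 25.4 ± 0.71% after stimulation and 29.4 ± 2.42% with TRAIL. These shares did not overlap between any 2 groups, and an exact permutation test of 3 libraries against 3 gave p = 0.1 for each pair of groups, the smallest two-sided value that it allows. Eif2a and Eif2d encode factors outside the eIF2 complex that can deliver initiator tRNA in other ways. Eif2a rose by 0.40 and fell by 0.31 on the log2 scale in the same 2 comparisons, and the fall lost the test without stimulated replicate 2 or TRAIL-treated replicate 1 (limma adjusted p = 0.057 and 0.062), without the filter on low values and with median-of-ratios or quantile scaling (up to 0.28). Eif2d had 37.2, 42.9 and 40.8 TPM in medium and 42.6, 47.7 and 47.6 after stimulation, where it did not pass the test as deposited (log2 fold change 0.19, limma adjusted p = 0.14) but passed as higher with median-of-ratios scaling (0.28, adjusted p = 0.0080) and quantile normalization (0.26, adjusted p = 0.014). With TRAIL it had 29.8, 29.5 and 24.95 TPM, below both. Eif2d overlaps Rassf5 (133 to 228 TPM by group mean) on the opposite strand over 11249 bases, and whether reads were counted by strand is not given in the sources used here.

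All 5 subunits of eIF2B, the exchange factor of eIF2, rose on stimulation, beside 28.8% of all genes, and fell with TRAIL, beside 33.5%, 2 of them at least 2-fold in each direction, beside 12.4% and 14.3%. The study's heatmap shows 4 of the 5 (all but Eif2b2), picked on these libraries, so their direction is not independent evidence. Eif2b3, the γ subunit, a partner of the catalytic ε subunit, changed most. It had 14.3, 10.5 and 12.8 TPM in medium, 48.1, 40.7 and 46.4 after stimulation and 11.3, 11.6 and 7.92 with TRAIL, a log2 fold change of 1.77 ± 0.16 (SE; limma adjusted p = 4e-06) and then -2.05 ± 0.16 (adjusted p = 1.4e-06). Eif2b5, the ε subunit that carries out the nucleotide exchange, went from 40.8, 47.2 and 39.9 TPM to 88.7, 101 and 96.5, and to 33.6, 31.5 and 27.04 with TRAIL. Its TRAIL-treated libraries were below the medium ones as well, by 0.46 on the log2 scale (limma adjusted p = 0.011). The α, β and δ subunits moved less. Eif2b1 (α) had 25.9, 23.6 and 24.9 TPM in medium, 50.9, 44.6 and 45.6 after stimulation and 25.99, 24.5 and 22.05 with TRAIL. Eif2b4 (δ) had 31.2, 39.6 and 34.5 TPM in medium, 55.3, 60.8 and 61.7 in stimulated and 34.7, 29.98 and 28.1 in TRAIL-treated libraries, and it overlaps Snx17 on the opposite strand. Eif2b2 (β) moved least, from 40.6, 49.9 and 44.5 TPM to 55.5, 66.4 and 56.3, with 45.1, 44.1 and 36.7 under TRAIL, a rise of 0.39 and a fall by 0.49 on the log2 scale. Its rise lost the test without the filter on low values, without medium replicate 1 (log2 fold change 0.32, limma adjusted p = 0.060) and without stimulated replicate 2 (0.31, adjusted p = 0.062). As Eif2b3 was the scarcest subunit in medium, its larger rise brought the levels of the 5 genes closer together. The highest was 2.85 to 4.75 times the lowest in the medium libraries, 1.85 to 2.48 times in the stimulated ones and 3.82 to 4.63 times with TRAIL.

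Of the 4 kinases that phosphorylate eIF2α, 1 fell and none rose by the test on stimulation, beside 40% and 28.8% of all genes. The kinase gene that fell was Eif2ak3, which encodes PERK, the kinase of the endoplasmic reticulum. Its level was 35.1, 42.05 and 35.5 TPM in medium, 11.4, 15.5 and 15.9 after stimulation and 52.9, 57.3 and 48.2 with TRAIL, with no overlap between any 2 groups. The log2 fold change was -1.35 ± 0.14 on stimulation (limma adjusted p = 1.2e-05), 1.83 ± 0.14 with TRAIL against stimulated cells (adjusted p = 1.2e-06) and 0.48 ± 0.14 with TRAIL against medium (adjusted p = 0.025). Eif2ak2 encodes PKR, which senses double-stranded RNA, and had 29.7, 31.4 and 29.03 TPM in medium, 23.7, 43.6 and 44.1 in stimulated and 24.5, 22.7 and 21.97 in TRAIL-treated libraries. Stimulated replicate 1 was below the medium libraries and the other two above them, and the difference did not pass the test (log2 fold change 0.24, limma adjusted p = 0.3). Without that library the log2 fold change was 0.53 (adjusted p = 0.00057). With TRAIL it fell by 0.61 on the log2 scale, or by 0.90 without that library, and the call was lost without stimulated replicate 2 or 3 or TRAIL-treated replicate 2 or 3 (limma adjusted p up to 0.081) and without the filter on low values (0.14). Eif2ak1, the haem-regulated kinase, had 38.6, 42.8 and 36.3 TPM in medium, 28.9, 35.6 and 33.4 after stimulation and 32.1, 30.8 and 28.9 with TRAIL. Eif2ak4, encoding Gcn2, which senses uncharged tRNA, had 14.6, 16.6 and 15.01 TPM in medium, 10.7, 16.3 and 16.2 after stimulation and 14.5, 12.6 and 10.6 with TRAIL. Neither Eif2ak1 nor Eif2ak4 passed the test on stimulation or with TRAIL against stimulated cells. Eif2ak1 did pass as lower on stimulation without stimulated replicate 2 (log2 fold change -0.33, limma adjusted p = 0.040). It also passed as lower rescaled without the mitochondrially encoded genes (-0.32, adjusted p = 0.022) and rescaled without the marker and immunoglobulin genes of other cells (-0.31, adjusted p = 0.027). Without stimulated replicate 1 Eif2ak4 was lower by 0.35 with TRAIL (adjusted p = 0.038).

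**Figure D2:**
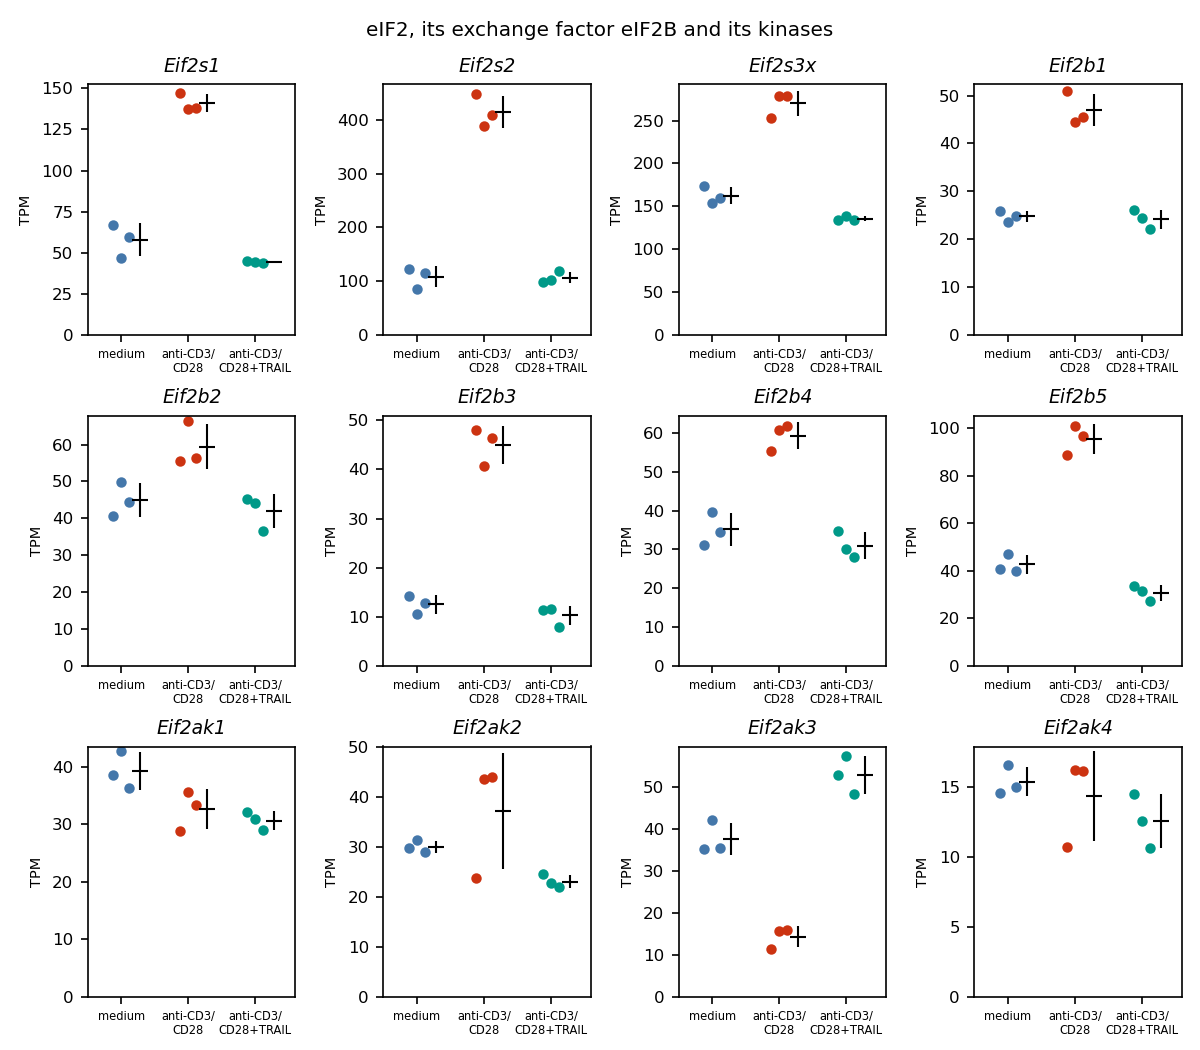
TPM of the eIF2 subunits, the eIF2B subunits and the eIF2 kinases in each library (points), with the mean and SD of each group of 3 (black). The eIF2 and eIF2B genes stand highest in the stimulated libraries, whereas Eif2ak3 stands lowest there, at 11.4, 15.5 and 15.9 TPM, and highest with TRAIL.

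The factors that scan for and select the start codon split. Eif1, a gatekeeper against wrong start codons, was the second most abundant member in medium, at 598, 481 and 516 TPM, and had 432, 325 and 316 after stimulation and 375, 408 and 367 with TRAIL. It fell by 0.58 on the log2 scale on stimulation (limma adjusted p = 0.0031), and TRAIL-treated and stimulated libraries overlapped. Its paralog Eif1b rose, from 46.1, 44.4 and 52.7 TPM to 74.5, 68.7 and 67.9, and stood at 44.3, 47.3 and 42.97 with TRAIL. Eif1a and Eif1ax encode nearly identical forms of eIF1A, which works with eIF1 in scanning, so that reads may be divided between them with uncertainty. Eif1a had 56.01, 37.1 and 45.99 TPM in medium, 156, 131 and 127 after stimulation and 37.6, 38.4 and 45.6 with TRAIL. Eif1ax had 31.3, 23.3 and 28.4 TPM in medium, 53.5, 46.01 and 47.9 after stimulation and 21.4, 22.7 and 23.7 with TRAIL. Both rose on stimulation and fell with TRAIL, and the medium and TRAIL-treated ranges overlapped for each. Eif1ad, whose product has a domain like that of eIF1A, was grouped with these factors without evidence here of a part in scanning. It behaved likewise, with 24.8, 32.5 and 28.1 TPM in medium, 78.6, 81.6 and 81.6 after stimulation and 26.5, 25.5 and 24.00 with TRAIL. Eif1ad overlaps Banf1 on the opposite strand, whose mean was 51.6, 186 and 44.3 TPM. Eif5, which activates the GTPase of eIF2, stood apart from all of these. Its level was 279.5, 301 and 266 TPM in medium, 221, 249.8 and 256 after stimulation and 420.4, 432 and 414 with TRAIL. On stimulation its call depended on the scaling. It did not pass as deposited (log2 fold change -0.22, limma adjusted p = 0.053), but passed as lower with quantile normalization (-0.40, adjusted p = 0.0012), rescaled without the mitochondrially encoded genes (-0.28, adjusted p = 0.019) and rescaled without the marker and immunoglobulin genes of other cells (-0.27, adjusted p = 0.022). It was higher with TRAIL than in either other group, by 0.80 ± 0.09 against stimulated cells (adjusted p = 2.3e-05) and by 0.58 ± 0.09 against medium (adjusted p = 0.0013).

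eIF3 is the complex that bridges the mRNA and the small subunit. Of its 14 genes, 12 rose on stimulation, beside 28.8% of all genes, 5 of them at least 2-fold, beside 12.4%, and none fell. With TRAIL 10 fell, beside 33.5%, 4 of them at least 2-fold, beside 14.3%, and none rose. Eif3c, which encodes a core subunit, moved most. It had 208, 202 and 198 TPM in medium, 617, 769 and 755 after stimulation and 189, 188 and 176 with TRAIL, a log2 fold change of 1.80 ± 0.10 (SE; limma adjusted p = 1.1e-07) and then -1.94 ± 0.10 (adjusted p = 7.6e-08). The core subunit gene Eif3b had 129.8, 153 and 132 TPM in medium, 340.3, 427 and 429 after stimulation and 136, 134 and 112 with TRAIL, and Eif3g had 115, 129 and 122 TPM in medium, 353, 334 and 346 after stimulation and 144, 145 and 133 with TRAIL. For Eif3b, Eif3c and Eif3g the stimulated libraries lay above all others. Eif3a, the largest subunit, had 238, 248 and 239 TPM in medium, 369, 489 and 486 after stimulation and 264, 258 and 243 with TRAIL, a rise of 0.88 on the log2 scale that reached 1.01 without stimulated replicate 1. Eif3d, Eif3i and Eif3l rose by 0.87, 0.96 and 0.81 on the log2 scale. Eif3l had 166, 150.2 and 165 TPM in medium, 276, 285 and 285 after stimulation and 141, 144 and 135 with TRAIL, a fall by 1.00 on the log2 scale at the 2-fold line, which several alternatives moved below it. The loosely attached subunit j has 2 genes. Eif3j1 had 33.2, 29.2 and 28.02 TPM in medium, 59.2, 69.2 and 72.8 after stimulation and 37.3, 36.2 and 33.2 with TRAIL. The scarcer Eif3j2 had 7.87, 7.87 and 13.1 TPM in medium, 42.6, 28.7 and 22.6 after stimulation and 16.4, 12.5 and 15.8 with TRAIL. Its standard error on the log2 scale (0.245) was the largest in the complex. The fall of Eif3j2 did not pass without the filter on low values (limma adjusted p = 0.056). Reads of this pair may be divided with uncertainty. The remaining subunits e, f, h, k and m moved little. Eif3e had 589, 367 and 538 TPM in medium, 487, 388 and 386 after stimulation and 484, 512 and 568 with TRAIL, and neither it nor Eif3m passed the test in any comparison, although Eif3e was lower by 0.43 on stimulation without medium replicate 2 (limma adjusted p = 0.016), and higher by 0.32 with TRAIL against stimulated cells (adjusted p = 0.035), and Eif3m was higher by 0.49 without medium replicate 1 (adjusted p = 0.032). Eif3f, Eif3h and Eif3k rose by 0.33, 0.24 and 0.44 on the log2 scale, and of these only Eif3f fell with TRAIL, by 0.30. These calls were weak. The rise of Eif3f lost the test without medium replicate 1 or 3 or stimulated replicate 1 or 2 (limma adjusted p up to 0.089), that of Eif3h without medium replicate 1 or stimulated replicate 2 (up to 0.058) and that of Eif3k without medium replicate 2 or stimulated replicate 1 (up to 0.083). The fall of Eif3f lost it without any stimulated library, medium replicate 3 or TRAIL-treated replicate 2 or 3 (up to 0.12). With quantile normalization none of the 4 calls passed (0.099 to 0.47).

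In eIF4F, the more abundant of the 2 helicase genes was not the same in all groups. Eif4a2 was the most abundant member in medium and 1 of the 2 members that fell at least 2-fold on stimulation, beside Eif2ak3. Its level was 1797, 1387 and 1573 TPM in medium, 548, 508 and 500.4 after stimulation and 1193, 1202 and 1207 with TRAIL, without overlap between any 2 groups. The log2 fold change was -1.60 ± 0.11 (SE; limma adjusted p = 4.1e-07) on stimulation and 1.21 ± 0.11 (adjusted p = 3.5e-06) with TRAIL against stimulated cells. Eif4a1, which encodes the other eIF4A of the complex, went from 570.4, 447 and 507 TPM to 1369.7, 1140.2 and 1109.6, and to 572, 602 and 621 with TRAIL. It rose by 1.25 and fell by 1.00 on the log2 scale, a fall that several alternatives moved below the 2-fold line. Both genes overlap small nucleolar RNA genes on their own strand, 3 for Eif4a1 and 5 for Eif4a2. The most abundant by group mean was Gm25835 for Eif4a1, with 22.9 TPM in medium, 7.23 after stimulation and 22.3 with TRAIL, and Gm24616 for Eif4a2, with 258, 33.4 and 78.4 TPM, the same order of groups as Eif4a2. Eif4a2 also overlaps Rfc4 on the opposite strand, with 10.4, 33.5 and 8.78 TPM. The part of these overlaps in the values of Eif4a1 and Eif4a2 was not tested. The processed pseudogene Eif4a-ps4, which may share reads with Eif4a1, had 158 to 203 TPM in medium, 417 to 484 after stimulation and 197 to 222 with TRAIL.

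The cap-binding subunit moved with most of the family. Eif4e had 35.2, 32.5 and 34.1 TPM in medium, 89.2, 86.7 and 88.00 after stimulation and 27.4, 38.6 and 26.6 with TRAIL, a log2 fold change of 1.35 ± 0.13 (limma adjusted p = 8.2e-06) and then -1.50 ± 0.13 (adjusted p = 3.8e-06). Eif4e2, whose product binds the cap and is known as a repressor, had 61.00, 74.7 and 66.6 TPM in medium, 102, 119.6 and 119 after stimulation and 72.3, 65.2 and 68.8 with TRAIL, a rise of 0.74 and a fall by 0.71 on the log2 scale. Eif4e3, the third cap-binding paralog, had 19.05, 20.2 and 15.2 TPM in medium, 21.9, 22.1 and 23.99 after stimulation and 17.5, 18.1 and 14.5 with TRAIL, did not pass the test on stimulation (limma adjusted p = 0.053) and fell by 0.42 on the log2 scale with TRAIL. Its value on stimulation passed without medium replicate 2 or TRAIL-treated replicate 3 (limma adjusted p = 0.035 and 0.041), with a pseudocount of 5 (adjusted p = 0.0498), with median-of-ratios scaling (log2 fold change 0.40, adjusted p = 0.0090) and with quantile normalization (0.51, adjusted p = 0.0027), and the fall did not pass without stimulated or TRAIL-treated replicate 3 (adjusted p = 0.053 and 0.055) or without the filter on low values (0.059). Of the scaffolds, Eif4g1 had 206, 259 and 215 TPM in medium, 279, 466 and 454 after stimulation and 193, 171 and 144 with TRAIL. Stimulated replicate 1 was the lowest of its group by far, and without it the log2 fold change on stimulation was 1.03 in place of 0.79. The rise did not pass without the filter on low values (limma adjusted p = 0.055). Eif4g2, which encodes a scaffold lacking the eIF4E site, had 372, 386 and 363 TPM in medium, 324, 392 and 379 after stimulation and 443, 446 and 402 with TRAIL, and rose by 0.24 on the log2 scale with TRAIL against stimulated cells (limma adjusted p = 0.047), a call lost without medium replicate 1 or 3, stimulated replicate 1 or 3 or TRAIL-treated replicate 1 or 2 (up to 0.14), and also without the filter on low values, without a variance trend, with the replicate block and with 6 libraries in the fit (0.066 to 0.10). Eif4g3 had 80.7, 102 and 84.5 TPM in medium, 52.6, 102 and 103 after stimulation and 97.8, 84.3 and 73.2 with TRAIL and passed the test in no comparison. The helicase partners Eif4b and Eif4h both rose and fell, Eif4h at least 2-fold, with 126, 156 and 131 TPM in medium, 298, 301 and 296 after stimulation and 129, 127 and 103 with TRAIL. With quantile normalization the rise of Eif4h lay below the 2-fold line. Since Eif4a2 fell while others rose, the 11 genes of this group summed to between 3219 and 3564 TPM in medium libraries, 3488 and 3661 after stimulation and 2947 and 3082 with TRAIL, a 1.07-fold difference of means on stimulation against 1.65-fold for eIF3 and 2.19-fold for eIF2 with Eif2a and Eif2d.

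Eif4ebp1, the gene of the inhibitor 4E-BP1, had the largest change of all members in both comparisons with stimulated cells. It had 6.46, 6.87 and 8.60 TPM in medium, 157, 126 and 132 after stimulation and 4.11, 5.28 and 5.43 with TRAIL. The means differed 18.9-fold on stimulation, and the mean of the stimulated libraries was 28 times that of the TRAIL-treated ones. On the log2 scale, these were 4.07 ± 0.14 (SE; limma adjusted p = 4.4e-09) and -4.55 ± 0.14 (adjusted p = 3.1e-09). The TRAIL-treated libraries also lay below every medium library, by 0.48 on the log2 scale (limma adjusted p = 0.027). The second inhibitor gene did not follow. Eif4ebp2 had 90.9, 121 and 96.4 TPM in medium, 68.02, 86.98 and 84.2 after stimulation and 79.9, 74.8 and 62.6 with TRAIL, and fell by 0.36 on the log2 scale on stimulation (limma adjusted p = 0.047), a call lost without any library other than medium replicate 1, stimulated replicate 2 and TRAIL-treated replicate 3 (up to 0.17), and also without the filter on low values, without a variance trend and with 6 libraries in the fit (0.058 to 0.21). Eif4ebp3 had 1.42, 2.08 and 1.62 TPM in medium, 1.36, 1.15 and 1.54 after stimulation and 3.99, 2.21 and 1.83 with TRAIL. It overlaps Maskbp3, which lies on the same strand over 1858 bases and had a mean of 23.9, 23.6 and 24.2 TPM. Reads may be divided between these 2 genes with uncertainty. Eif4ebp3 did not pass the test on stimulation and was higher with TRAIL than in stimulated cells (log2 fold change 0.60, limma adjusted p = 0.024), but not without stimulated replicate 2 or TRAIL-treated replicate 1 (adjusted p = 0.071 and 0.074), without the filter on low values (0.13) or with quantile normalization (0.16). Eif4enif1 encodes 4E-T, which carries eIF4E into the nucleus and into P-bodies, and had 63.3, 75.5 and 63.4 TPM in medium, 144, 216 and 229.6 after stimulation and 58.5, 48.98 and 43.02 with TRAIL. Drg1 lies on the opposite strand along 42197 bases of Eif4enif1 and had a mean of 50.4, 88.5 and 41.8 TPM.

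**Figure D3:**
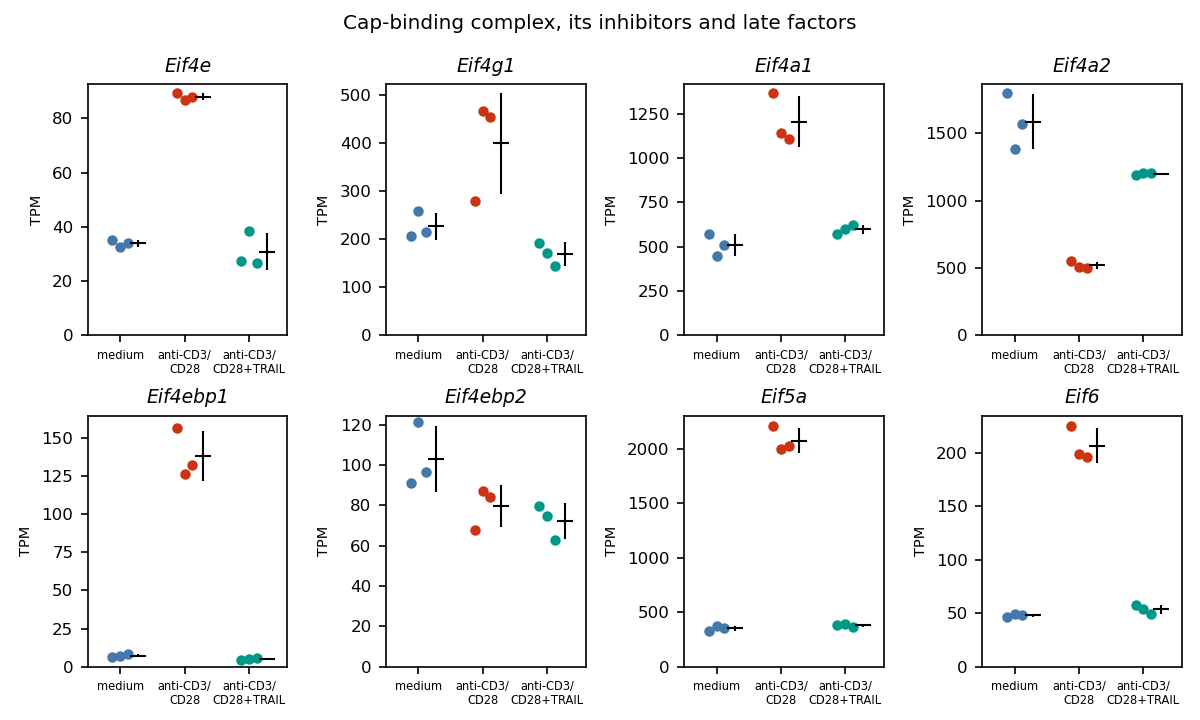
TPM in each library (points), with the mean and SD of each group of 3 (black), for the cap-binding protein Eif4e, the scaffold Eif4g1, both eIF4A helicases, both main eIF4E-binding proteins, Eif5a and Eif6. By group mean, Eif4a2 and Eif4ebp2 are highest in medium and the other 6 genes in the stimulated libraries.

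The factors of subunit joining and later steps held the family's most abundant transcript in stimulated cells. Eif5a encodes eIF5A, the hypusine-bearing factor that helps ribosomes through difficult peptide bonds and at termination. Its level was 327, 371 and 356 TPM in medium, 2207, 1999 and 2022 after stimulation and 380.3, 396 and 362 with TRAIL. The stimulated mean was 5.91 times the medium mean, with a log2 fold change of 2.56 ± 0.09 (SE; limma adjusted p = 4.6e-09), and the change with TRAIL against stimulated cells was -2.45 ± 0.09 (adjusted p = 8e-09). By mean TPM Eif5a stood at rank 367 of all genes in medium, 56 after stimulation and 339 with TRAIL, whereas Eif4a2 stood at 58, 266 and 107. Eif6, which keeps the ribosomal subunits apart and serves in the making of the large subunit, went from 46.6, 49.3 and 48.6 TPM to 225, 199 and 196, with 57.8, 53.7 and 49.5 under TRAIL. Its log2 fold changes were 2.08 ± 0.09 (limma adjusted p = 2.7e-08) and -1.92 ± 0.09 (adjusted p = 5.4e-08). Eif5b, the GTPase of subunit joining, had 48.3, 51.9 and 49.5 TPM in medium, 88.7, 85.8 and 87.5 after stimulation and 45.7, 47.4 and 41.3 with TRAIL. Eif5a2 had 6.36, 5.16 and 5.74 TPM in medium and 6.01, 5.97 and 5.40 after stimulation, a log2 fold change of 0.01 ± 0.11 that passed with quantile normalization alone (0.34, limma adjusted p = 0.029), and 3.65, 4.03 and 3.67 with TRAIL, below both other groups. Eif4a3, a helicase of the exon junction complex that shares its name with the initiation helicases, had 90.7, 112 and 101 TPM in medium, 233, 242 and 231 after stimulation and 119.8, 123 and 99.8 with TRAIL, rising and falling at least 2-fold, with a fall that some alternatives moved below that line.

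**Figure D4:**
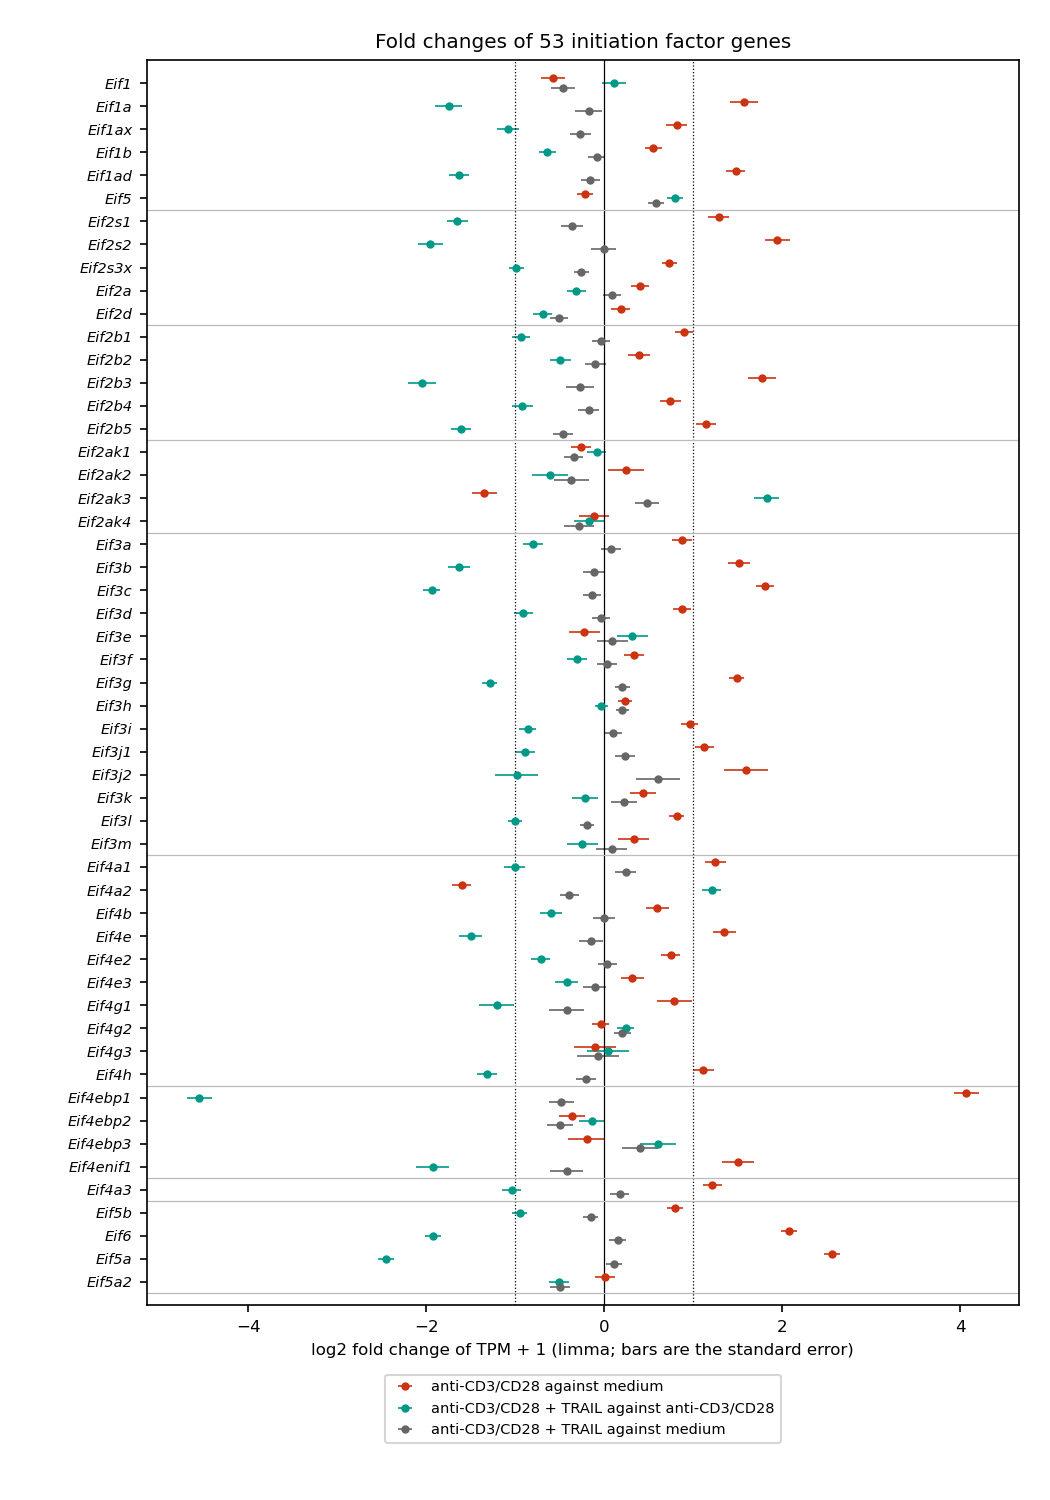
Log2 fold change of TPM + 1 (points) with its standard error (bars) from limma for the 53 tested members, grouped by role, in the 3 comparisons. The dotted lines mark 2-fold. Most red points (stimulated against medium) lie right of 0, most green points (TRAIL-treated against stimulated) lie left of it, and every grey point (TRAIL-treated against medium) lies between the dotted lines.

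Shares within pairs of related genes do not depend on the scaling of a library. Eif4a1 made up 24.1, 24.4 and 24.4% of the summed TPM of Eif4a1 and Eif4a2 in the medium libraries, 71.4, 69.2 and 68.9% in the stimulated and 32.4, 33.4 and 33.97% in the TRAIL-treated ones. The means were 24.3 ± 0.173%, 69.8 ± 1.37% and 33.2 ± 0.793% (SD, n = 3). With Eif4a-ps4 counted as Eif4a1, they were 30.3, 76.0 and 40.1%. The TRAIL-treated share was thus above that in medium in all 3 libraries. For the inhibitors, Eif4ebp1 made up 6.73 ± 1.42% of its sum with Eif4ebp2 in medium, 63.3 ± 5.63% after stimulation and 6.49 ± 1.55% with TRAIL. Per Eif4ebp1 transcript there were 4.71 ± 0.739 (SD) transcripts of Eif4e in medium, 0.641 ± 0.0631 after stimulation and 6.29 ± 1.26 with TRAIL, whereas per Eif4ebp2 transcript there were 0.336 ± 0.0618, 1.12 ± 0.17 and 0.428 ± 0.0864. Eif1 gave 91.7 ± 1.06% of Eif1 plus Eif1b in medium, 83.4 ± 1.66% after stimulation and 89.5 ± 0.0847% with TRAIL. Eif1a gave 62.5 ± 1.48%, 73.7 ± 0.988% and 64.1 ± 1.56% of its sum with Eif1ax, and Eif4g1 gave 71.8 ± 0.0533%, 82.6 ± 1.4% and 66.5 ± 0.356% of its sum with Eif4g3. For all of these pairs the stimulated shares overlapped neither other group, which in an exact permutation test of 3 libraries against 3 gives p = 0.1, the smallest two-sided value. Between TRAIL-treated and medium libraries the exact permutation test gave p = 0.1 for the Eif4a1, Eif1 and Eif4g1 shares, 0.3 for Eif1a and 0.7 for Eif4ebp1. For Eif3j1 and Eif3j2 the shares overlapped (exact permutation p = 0.4, 0.9 and 0.3 for stimulated against medium, TRAIL-treated against stimulated and TRAIL-treated against medium).

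**Figure D5:**
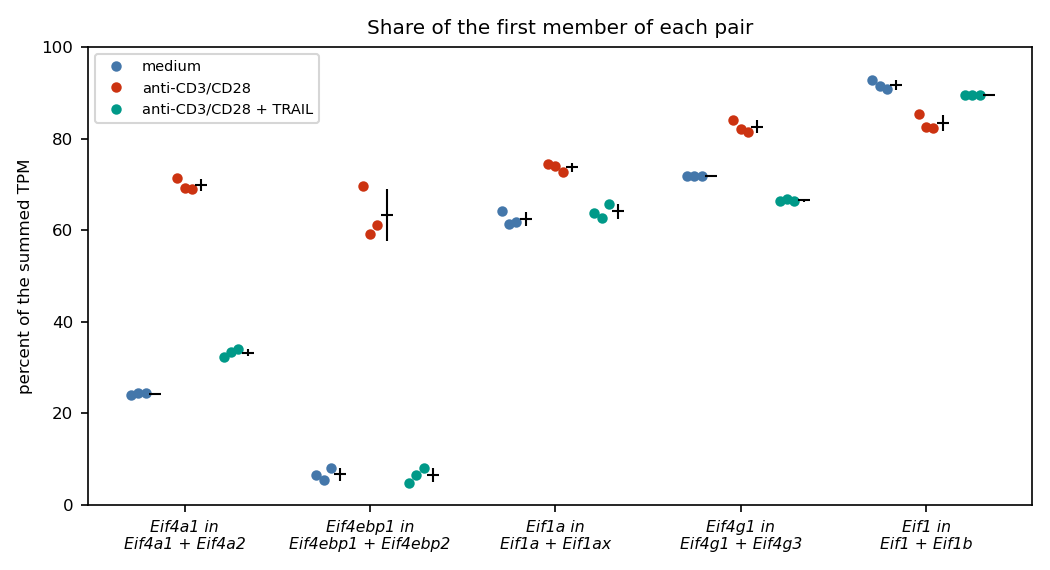
Share (percent) of the first-named gene in the summed TPM of a pair, in each library (points), with the mean and SD of each group of 3 (black). The Eif4a1 share goes from 24.1 to 24.4% in medium to 68.9 to 71.4% in stimulated libraries and stands at 32.4 to 34.0% with TRAIL, and the Eif4ebp1 share shows the widest step.

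Against cells in medium, TRAIL-treated activated T cells showed small differences in these genes. None of the 53 members changed at least 2-fold, beside 4.62% of all genes, 2.49% higher and 2.13% lower. At the adjusted p alone, 10 members fell and 2 rose, beside 24.6% and 8.03% of all genes. The split depended on the scaling. With median-of-ratios scaling, which moved the median of all genes by 0.17 on the log2 scale, 9 members were higher and 2 lower, beside 12.6% and 13.7% of all genes. With quantile normalization, which moved the median by 0.14, 7 members were higher and 5 lower, beside 12% and 16.2% of all genes. The values of Eif5 (log2 fold change 0.58, limma adjusted p = 0.0013), Eif2d (-0.51, adjusted p = 0.0057) and Eif2b5 (-0.46, adjusted p = 0.011) passed the test under every alternative that was run. The other 9 lost it under at least 1, namely Eif5a2 (-0.49), Eif4ebp2 (-0.50), Eif4ebp1 (-0.48), Eif1 (-0.47), Eif4a2 (-0.39), Eif2s1 (-0.36), Eif2ak1 (-0.35), Eif2s3x (-0.26) and Eif2ak3 (0.48). No eIF3 gene passed the test, the largest value being that of Eif3j2 (0.61, limma adjusted p = 0.084), although Eif3g and Eif3j1 passed as higher with median-of-ratios scaling (0.39 and 0.42, adjusted p = 0.0095 and 0.0072) and quantile normalization (0.28 and 0.41, adjusted p = 0.015 and 0.0072), and Eif3a, Eif3h and Eif3j2 under at least 1 alternative each. In all, 13 members that did not pass as deposited passed under at least 1 alternative. Of those outside eIF3, Eif2ak2, Eif4g1 and Eif4enif1 passed as lower with only the 6 libraries of the comparison (log2 fold change -0.37, -0.42 and -0.42, adjusted p = 0.019, 0.039 and 0.037) and without stimulated replicate 1 (adjusted p = 0.0069, 0.022 and 0.020). Eif1ax and Eif4e passed as lower without 1 library each, medium replicate 2 and TRAIL-treated replicate 2 (adjusted p = 0.030 and 0.048). Eif4a3, Eif4g2 and Eif6 passed as higher with median-of-ratios scaling (0.36, 0.39 and 0.34), and Eif4a3 and Eif6 with quantile normalization (0.29 and 0.33). The libraries did not overlap for 9 members that were higher and 17 that were lower, beside 12.4% and 38.2% of all genes.

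Of the 5 members that were not tested, Eif2s3y, the Y-linked copy of the γ subunit gene, was listed at 0.0001 TPM in all 9 libraries, as was Eif4e1b, a cap-binding paralog known from oocytes. Eif2c5 was also at that value throughout. It is a long noncoding RNA gene in GENCODE M21, carries an older name of the argonaute family and is no initiation factor. Eif4a3l1 and Eif4a3l2, relatives of Eif4a3, reached at most 0.0808 and 0.328 TPM. Of the 58 members, 57 are protein-coding genes and all lie at the same GRCm38 locus in GENCODE M21, on 20 chromosomes. In all, 11 members overlap another gene of at least 10 TPM by a group mean. Not named above are Eif2ak1 with Aimp2 (29.0 TPM in medium, 81.5 after stimulation and 21.4 with TRAIL), Eif3j1 with Spg11, Eif5b with Rev1 and Eif2a with Serp1, all on the opposite strand.

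The regulators and partners of initiation, 30 genes of a list of 31, were called in shares not far from those of all genes on stimulation, where 10 rose and 10 fell, beside 28.8% and 40% of all genes, with a median log2 fold change of 0.043. With TRAIL against stimulated cells 8 rose and 14 fell, beside 33.5% each way, with a median of -0.27. Ppp1r15a, which encodes Gadd34, the subunit that directs a phosphatase to eIF2α, moved most. It had 437, 536 and 430.0 TPM in medium, 70.5, 81.4 and 87.9 after stimulation and 789, 796 and 736 with TRAIL, a log2 fold change of -2.53 ± 0.12 (limma adjusted p = 2.7e-08) and then 3.26 ± 0.12 (adjusted p = 6.5e-09), and it was also above medium by 0.73 (adjusted p = 0.0015). Its constitutive relative Ppp1r15b had 67.8, 77.4 and 67.7 TPM in medium, 79.1, 96.3 and 93.3 after stimulation and 74.6, 73.8 and 63.5 with TRAIL. Impact, an inhibitor of Gcn2 activation, was the 1 gene of the 30 changed at least 2-fold with TRAIL against medium, beside 4.62% of all genes. Its level was 30.9, 25.7 and 26.2 TPM in medium, 21.4, 28.3 and 25.5 after stimulation and 68.2, 72.7 and 69.6 with TRAIL, a log2 fold change of 1.32 ± 0.12 against medium (limma adjusted p = 4.9e-05). Pdcd4, which blocks the eIF4A helicase, fell from 329.5, 363 and 328 TPM to 125, 126 and 125 and had 310.3, 285 and 247 with TRAIL, the same order as Eif4a2. Larp1, Pabpc4 and Denr rose at least 2-fold on stimulation and fell at least 2-fold with TRAIL, Larp1 from 60.1, 79.1 and 63.8 TPM to 184, 269 and 263, with 72.1, 61.8 and 55.9 under TRAIL. Mtor had 16.4, 20.8 and 15.8 TPM in medium, 11.7, 25.7 and 24.3 after stimulation and 15.8, 15.1 and 13.3 with TRAIL and passed the test in no comparison, with stimulated replicate 1 the lowest of all libraries. For eIF5A, Dohh, an enzyme of hypusine synthesis, rose by 0.77 on the log2 scale and fell by 0.92, and Dhps, the other enzyme, passed the test in no comparison.

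Of 8 genes of elongation and termination, 7 rose on stimulation, beside 28.8% of all genes, and 6 fell with TRAIL, beside 33.5%. Against medium, 3 of them were higher with TRAIL by the test, beside 8.03%, and 1 was lower, beside 24.6%. Eef1a1, the abundant elongation factor that brings tRNA to the ribosome, had 13716, 12661 and 13146 TPM in medium, 18524, 18729 and 18782 after stimulation and 16838, 17175 and 17278 with TRAIL. It rose by 0.50 on stimulation (limma adjusted p = 0.0014), and with TRAIL the log2 fold change was -0.13 against stimulated cells (adjusted p = 0.29) and 0.38 against medium (adjusted p = 0.02). Etf1, the factor that reads stop codons, had 91.4, 88.4 and 84.9 TPM in medium, 269.9, 285 and 277 after stimulation and 118, 126 and 123 with TRAIL, with no overlap between any 2 groups. Eef1g had 616, 724 and 625 TPM in medium, 1663, 1588 and 1599.7 after stimulation and 725, 697 and 616 with TRAIL. The group summed to between 16949 and 17500 TPM in medium libraries, 24822 and 25640 after stimulation and 21692 and 22180 with TRAIL.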

How the data were processed

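CD4+ T cells of 9 libraries, 3 in each of 3 groups taken from the sample labels, were analysed. The submitters' processing notes name Trimmomatic 0.36, HISAT2 2.1.0, SAMtools 1.2, StringTie 2.1.2 and DESeq2. They name the human build GRCh38, whereas the methods name GRCm38, and the loci listed match GRCm38. The authors deposited TPM values for 55487 genes, with a total of 1000000 in each library, so read depth and counting error are unknown and the precision rests on 3 libraries per group.

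The test was limma (version 3.58.1, R 4.3.3) with moderated variances and a mean-variance trend. Its input was log2(TPM + 1) of all libraries, fitted together, for 15536 genes that reached 1 TPM in 3 or more of them. Values were adjusted with Benjamini-Hochberg over all of these genes, and calls of at least 2-fold needed an adjusted p under 0.05. Shares within pairs were compared with exact two-sided permutation tests. Loci and promoter motifs were read with Python 3.11.15 and pandas 2.3.3, and figures were drawn with matplotlib 3.10.9. The fit was checked on simulated data.

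The members and lists were chosen with earlier results of these data known. Values in every library were given for the eIF2 and eIF2B subunits, the eIF2 kinases, paralog sets and every member changed at least 2-fold. Protein sequences were not used here. The alternatives varied the pseudocount, filter, scaling, variance trend, libraries, replicate block and fold threshold. The rescaling without marker genes was added after seeing the data.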

Additional observations from a re-analysis of the deposited data

How the results depend on the processing

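Counts of members changed at least 2-fold are given for stimulated against medium, TRAIL-treated against stimulated, and TRAIL-treated against medium. They were 21, 22 and 0 as reported. Leaving out each library in turn gave 21 to 23, 21 to 23 and 0. The other alternatives gave 20 to 22, 18 to 23 and 0, apart from dropping the fold threshold, which gave 41, 44 and 12. The lowest count, 18 with median-of-ratios scaling, lacked Eif1ax, Eif3l, Eif4a1 and Eif4a3, all near the 2-fold line. Quantile normalization moved the median of all genes by 0.19 on the log2 scale on stimulation. There 37 members were higher and 5 lower at the adjusted p alone, beside 35.9% and 33.4% of all genes. With the replicate block the counts were 21, 22 and 0, and at the adjusted p alone 41, 43 and 10. Beside these last counts, the shares of all genes higher and lower were 28.3% and 39.3%, then 33.1% and 33.2%, then 7.66% and 21.5%. Same-numbered libraries of 2 groups had correlations of their deviations from -0.31 to 0.29, and 4 of 9 libraries correlated best with their own number. With 3 libraries per group these values cannot tell whether same-numbered libraries share a source. The labels give only the number. Of 3177 values of single members under alternatives, 2998 kept their side of the threshold, 134 lost it and 45 gained it, and no value that passed changed sign. The cause of these shifts was not tested. Without read depth, counting error cannot be given. The 5 members that did not reach the filter were fitted only in the alternative without it.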
